A study of Macaca mulatta with 12 samples.

Results

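The vacuolar ATPase (V-ATPase) is the proton pump of acidic organelles, and 10 of its subunit genes are described here in the lateral geniculate nucleus of the rhesus macaque, the thalamic nucleus that relays retinal signals to the visual cortex. The genes were ATP6V0A1, ATP6V0B, ATP6V0C, ATP6V0D1, ATP6V1A, ATP6V1B2, ATP6V1C1, ATP6V1D, ATP6V1E1 and ATP6V1H, 10 of 11963 gene symbols on the array. All probe sets annotated with exactly 1 of these symbols were taken, which gave 17. ATP6V0B was chosen by its difference between the hemispheres in these same arrays, so the hemisphere values of all members are given as a description, with no p-value, and the number called there only beside the share over all probe sets.

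The RNA came from monocularly deprived monkeys, 1 array for each of the 6 layers in each hemisphere, 12 in all. Each layer is driven by 1 eye only and therefore was deprived in 1 hemisphere and served as its non-deprived counterpart in the other. The 3 ipsilateral deprived arrays were layers 2, 3 and 5, and the 3 ipsilateral non-deprived arrays were layers 1, 4 and 6. On the contralateral side layers 1, 4 and 6 were deprived and layers 2, 3 and 5 were not. Layers 1 and 2 were taken as magnocellular (4 arrays) and layers 3 to 6 as parvocellular (8 arrays), from the known anatomy of the nucleus. Every array analysed here came from a deprived monkey, so the non-deprived layers are not those of an animal with normal vision. The number of animals, which arrays shared an animal, their age and the way and length of deprivation are unknown here. The variation between arrays is therefore one between layers and hemispheres that may be partly technical, and p-values over layers may be too small as statements about animals.

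The V-ATPase is built of a V1 sector in the cytosol, which hydrolyses ATP, and a V0 sector in the membrane, which carries protons through. Hydrolysis turns a central stalk and the ring of V0 proteolipids attached to it. In neurons the pump acidifies endosomes and lysosomes and energises synaptic vesicles, whose proton gradient drives the loading of neurotransmitter.

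Of the 17 probe sets, 14 passed the intensity filter (a mean log2 intensity of at least 8.92, the median over all probe sets). They covered all 10 genes, with 5 probe sets for the 4 V0 genes and 9 for the 6 V1 genes. The macaque gene tables held all 10 symbols as well. The probes were designed on human sequence and may bind macaque RNA unequally, so a scaled intensity was compared between arrays only within a probe set. The deposited scaling had made the trimmed means equal, and the median intensity was 586 ± 83.4 (SD, n = 6) ipsilaterally and 468 ± 39.7 (n = 6) contralaterally. RNA degradation raises the 3'/5' signal ratio of GAPDH, and this ratio was 2.87 to 11 ipsilaterally and 2.21 to 4.09 contralaterally. It was highest on the ipsilateral deprived layers 2 (9.38) and 5 (11). The layer 2 array also had the lowest mean correlation with the other arrays, 0.868 against 0.897 to 0.934. Of 12 neuronal marker genes, 11 passed the filter. Markers of oligodendrocytes (8 of 10), astrocytes (7 of 8), microglia (4 of 8) and endothelial cells (5 of 7) did so as well. Of all 11963 gene symbols on the array, 7285 had a probe set past the filter. These counts therefore do not show by themselves which cell types were present. In samples of mixed cell types, fewer cells of a type and less RNA per cell cannot be told apart.

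ATP6V0B encodes the c'' proteolipid, a subunit of the rotating V0 ring. Its intensity was lower in the ipsilateral than in the contralateral hemisphere in all 6 layers. Ipsilaterally it was 15880, 9853, 13812, 11821, 12855 and 17945 in layers 1 to 6. In the same order it was 23206, 23265, 36316, 24262, 35659 and 28544 contralaterally. The highest ipsilateral array, layer 6, lay below the lowest contralateral array, layer 1. The means were 13694 ± 2893 and 28542 ± 6094 (SD, n = 6 each), a fitted difference of -1.06 on the log2 scale or 2.09-fold lower ipsilaterally. By layer the ipsilateral intensity was 0.36 times the contralateral one in layer 5, 0.38 in layer 3, 0.423 in layer 2, 0.487 in layer 4, 0.629 in layer 6 and 0.684 in layer 1. The 3 layers with the larger difference were those deprived ipsilaterally, in which the ratio between hemispheres is also that of a deprived to a non-deprived layer.

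The order of ATP6V0B in the 4 groups of 3 arrays was the same in both hemispheres. Ipsilaterally the mean was 12173 ± 2066 in the deprived and 15215 ± 3116 in the non-deprived layers (SD, n = 3 each). Contralaterally it was 25338 ± 2827 in the deprived and 31747 ± 7352 in the non-deprived layers. Within each hemisphere the ranges of the deprived and non-deprived layers overlapped, and between hemispheres none of them did.

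**Figure D1:**
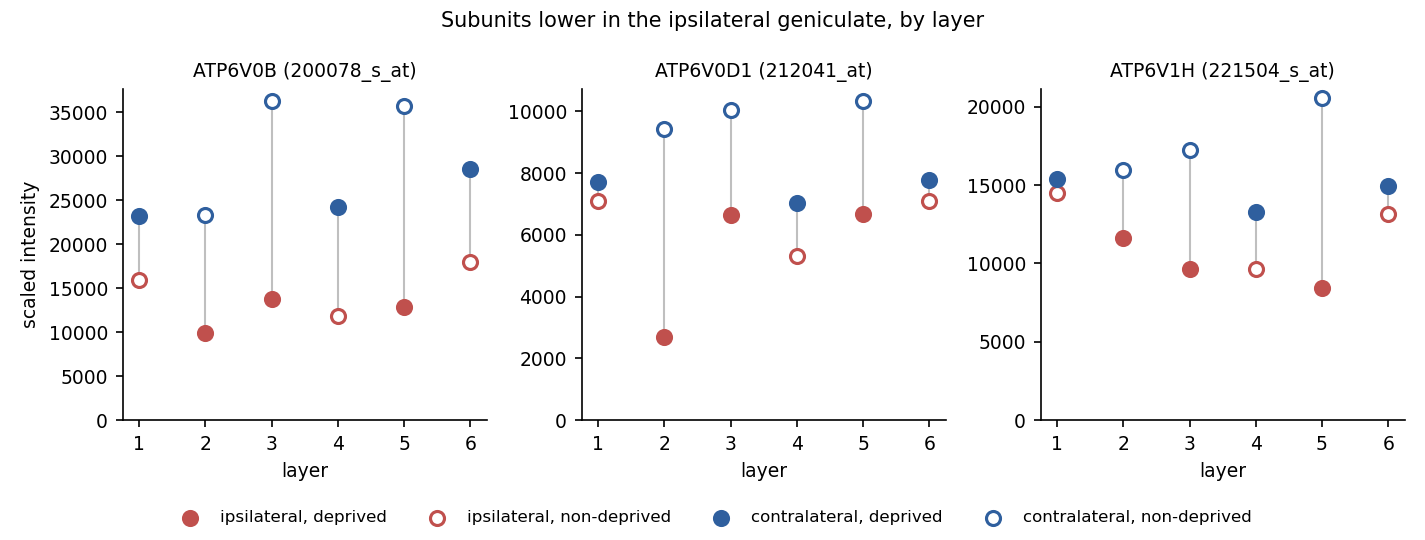
Scaled intensity (vertical axis) of ATP6V0B, ATP6V0D1 and ATP6V1H by layer (horizontal axis), with red points for ipsilateral and blue points for contralateral arrays, filled for deprived layers. Grey lines join the arrays of a layer. For ATP6V0B all 6 ipsilateral points (9853 to 17945) lie below all 6 contralateral points (23206 to 36316).

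RNA quality differed between the hemispheres, and its values are set beside those of ATP6V0B. The ipsilateral layers 3 and 6 had GAPDH ratios of 2.87 and 2.88, within the contralateral range, and ATP6V0B intensities of 13812 and 17945, below every contralateral array. In the ipsilateral layers 5, 2 and 4 the ratios were the highest of that hemisphere, at 11, 9.38 and 5.65. Their ATP6V0B intensities, 12855, 9853 and 11821, were its lowest. The ipsilateral layer 1 had a ratio of 5.04 and an intensity of 15880. The ATP6V0B difference was -0.93 when the fit took the GAPDH ratio as a further term and -0.91 when it took that of ACTB. Leaving out the 2 arrays with the largest GAPDH ratios gave -1.02. Neuronal markers had a mean score (log2 intensity minus each gene's own mean) of -0.01 ipsilaterally and 0.01 contralaterally. Microglial markers had 0.17 and -0.17. The part of RNA quality or of cell types in the difference was not tested.

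Among all 11105 probe sets tested, ATP6V0B had the 43rd most negative hemisphere difference. It was the only 1 of the 14 member probe sets past an adjusted p of 0.05 there, against 12 of all tested (0.108%), and the only 1 whose hemispheres did not overlap, against 1.29% of all tested. The fits with the GAPDH or the ACTB ratio as a further term, and the fit without the 2 arrays of largest GAPDH ratio, called 0 of 14 members and 0 of all 11105. Since ATP6V0B was chosen by this contrast, nothing is read from these counts. With ATP6V0B itself counted, 10 of the 14 member probe sets were negative. The median over the members was -0.20, against 0.07 over all probe sets tested, of which 42.1% were negative. This count and this median include the probe set that was picked, and some member probe sets read the same gene. Another scaling moves this contrast as a whole. When each array was centred on its median, the median of all probe sets moved by -0.32 to -0.25, and 13 of 14 members were negative, with ATP6V0B at -1.38. Under quantile normalization 9 of 14 were negative and ATP6V0B was at -0.91.

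The other V0 subunits differed among themselves. ATP6V0D1 encodes subunit d, which links the proteolipid ring to the central stalk. Its intensities in layers 1 to 6 were 7095, 2705, 6634, 5305, 6684 and 7105 ipsilaterally. Contralaterally they were 7700, 9413, 10060, 7044, 10343 and 7781. The ipsilateral array was the lower in every layer, but the hemispheres overlapped through the contralateral layer 4. The fitted difference was -0.61 (1.53-fold lower ipsilaterally), and it was -0.42 without the ipsilateral layer 2, which had the lowest value of all. It was -0.24 with the ACTB ratio as a covariate.

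ATP6V0C encodes the c proteolipid, the main component of the ring to which the ATP6V0B product also belongs. Its hemisphere difference was -0.06 by 1 probe set and 0.04 by the other, so a difference of the size of that of ATP6V0B was not seen for this ring subunit. ATP6V0A1 encodes a form of subunit a, the stationary V0 subunit that holds the proton half-channels and is prominent in neurons. It was at 3537 ± 639 ipsilaterally and 3036 ± 391.6 contralaterally (SD, n = 6 each), a difference of 0.21, with the ipsilateral array higher in 3 of 6 layers.

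In the V1 sector, ATP6V1H encodes subunit H, which takes part in the regulation of ATP hydrolysis. Its intensities were 14494, 11597, 9652, 9654, 8435 and 13169 in the ipsilateral layers 1 to 6. The contralateral layers had 15367, 15944, 17229, 13304, 20527 and 14952. Each ipsilateral array was below its contralateral counterpart, and the hemispheres overlapped by the ipsilateral layer 1, which exceeded the contralateral layer 4. The difference was -0.55 (1.47-fold lower) and stayed at -0.43 and -0.57 with the GAPDH and the ACTB ratio as a covariate.

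ATP6V1E1 encodes a peripheral stalk subunit, which keeps the catalytic head from turning with the rotor. Its intensities were 12305, 11010, 11099, 7136, 9672 and 21937 in the ipsilateral layers 1 to 6. Contralaterally they were 10114, 16551, 30972, 14905, 21883 and 10667. The ipsilateral array was lower in 4 of 6 layers (-0.50) and higher in layers 1 and 6. ATP6V1A, the catalytic subunit A, and ATP6V1B2, the non-catalytic nucleotide-binding subunit B, had differences of 0.07 and -0.12.

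**Figure D2:**
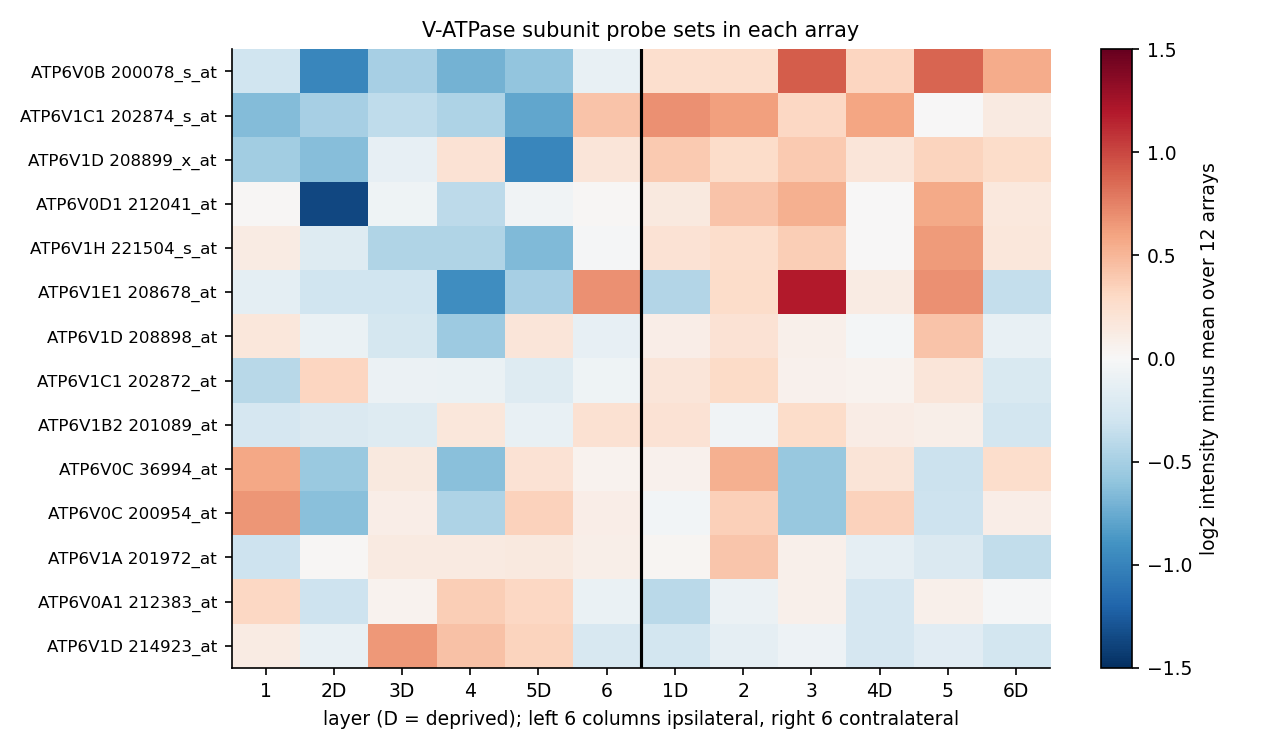
Log2 intensity of each tested member probe set (rows, ordered by hemisphere difference) on each of the 12 arrays (columns, by hemisphere and layer), minus that probe set's own mean, as a colour scale. The ATP6V0B row separates the hemispheres on every array, while both ATP6V0C rows are highest in the non-deprived layers 1 and 2 and show no such separation.

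For hemisphere, the probe sets of ATP6V1D differed in direction and those of ATP6V1C1 in size. For ATP6V1D, the central stalk subunit that turns with the ring, 208898_at was at 31125 ± 5721 ipsilaterally and 36222 ± 4989 contralaterally, a difference of -0.23. The second probe set, 208899_x_at, was at 6561 ± 2120 and 9643 ± 554.4, a difference of -0.62. The third, 214923_at, had the opposite sign, at 1511 ± 351.5 and 1123 ± 67.56 (SD, n = 6 for each mean), a difference of 0.40 with the ipsilateral array higher in all 6 layers. Over the 12 arrays these 3 probe sets correlated with each other at r = -0.06, -0.44 and -0.44. The suffix _x marks probe sets in which some probes also match other sequences. The direction for ATP6V1D therefore depended on which probe set was read. For ATP6V1C1, subunit C, which joins the peripheral stalks to the rest of the pump, 202872_at differed by -0.18 and 202874_s_at by -0.78, from 1460 ± 511.1 ipsilaterally to 2452 ± 459.4 contralaterally. They correlated at r = 0.49. The probe sets of ATP6V0C, whose differences were both near 0, correlated at r = 0.96.

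**Figure D3:**
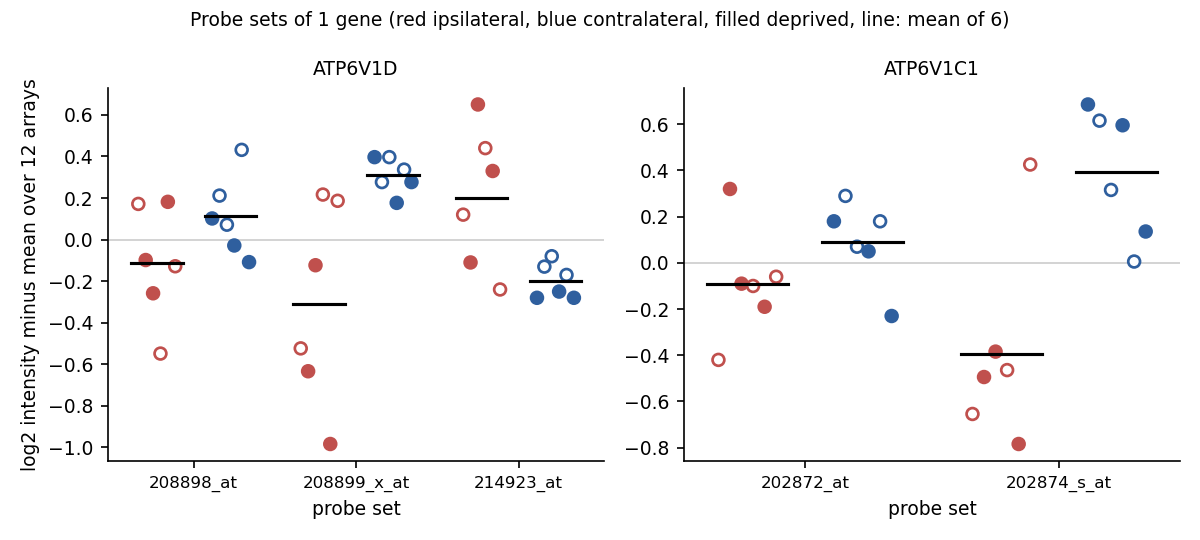
Log2 intensity minus the probe set's mean over 12 arrays (vertical axis) for each tested probe set (horizontal axis) of ATP6V1D and ATP6V1C1, red ipsilateral, blue contralateral, filled deprived, with a line at each mean of 6 arrays. The ipsilateral mean is the lower for 208898_at and 208899_x_at and the higher for 214923_at of the same gene.

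The 3 probe sets below the filter were left out of the main fit. For ATP6V0A1, 205095_s_at ranged from 185.8 to 602.3 ipsilaterally and from 86.6 to 403.9 contralaterally. For ATP6V1C1, 202873_at ranged from 171.6 to 672.3 and from 47.2 to 420.9. The third, 201971_s_at of ATP6V1A, had intensities of 64.2 to 192.3 in the 6 deprived layers and of 22.1 to 52.1 in the 6 non-deprived layers, with no overlap. Of 22215 probe sets without the filter, 104 (0.468%) were free of overlap between these groups. All 6 non-deprived values and 1 deprived value were below the floor of 110.8, the 20th percentile of all intensities, to which low values were raised before the fit, so the non-deprived level has only an upper bound. In the fit without a filter its estimate was 0.54 ± 0.10 (SE; limma, adjusted p = 0.219 over 22215 probe sets). The 6 non-deprived values all equalled the floor in that fit, so this SE and p do not measure their spread. The brighter probe set of ATP6V1A, 201972_at, did not show this difference by deprivation and had an estimate of -0.06 ± 0.15 (limma, adjusted p = 0.913).

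The comparison of deprived with non-deprived layers asked whether loss of input from 1 eye changes the pump's transcripts. No member passed the threshold. The limma fit with cell class and hemisphere as further terms called 0 of 14 member probe sets and 7 of all 11105 (0.063%). At an unadjusted p under 0.05 there were 3 of 14 members (21.4%), against 12% of all probe sets tested. Deprived and non-deprived layers overlapped for each of the 14 tested members, while 0.684% of all tested probe sets had none. The estimate was negative for 10 of 14 members, with a median of -0.12, against 0.03 over all tested, of which 46.3% were negative. The signs depend on the scaling. With median centring, which moved the median of all probe sets by -0.14, all 14 members were negative, with a median of -0.25 against -0.11 over all. Quantile normalization left 9 of 14 negative.

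ATP6V1E1 had the largest estimate for deprivation. Deprived layers were at 11245 ± 1874 and spanned 9672 to 14905, and non-deprived layers were at 18464 ± 8368 and spanned 7136 to 30972 (SD, n = 6 each). The deprived array was the lower in 5 of 6 layers, and the spread of the non-deprived layers was larger than the difference. The log2 change was -0.58 ± 0.24 (SE; limma, adjusted p = 0.34). It was -0.83 without the ipsilateral non-deprived layer 4, the lowest array, and -0.32 without layers 5 and 6.

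Estimates of similar size came from subunits of both sectors. ATP6V0D1 was at -0.40 ± 0.19 (limma, adjusted p = 0.419), lower in the deprived array of 3 of 6 layers. It was -0.20 ± 0.16 without the ipsilateral layer 2, where the deprived array was 0.287 times the non-deprived one, and -0.17 ± 0.19 in parvocellular layers alone. ATP6V0B was at -0.31 ± 0.14 (adjusted p = 0.404 by limma), also lower in 3 of 6 layers, since the hemisphere difference is larger than this change. Its means were 18755 ± 7543 in deprived and 23481 ± 10368 in non-deprived layers (SD, n = 6 each). ATP6V1H was likewise at -0.31 ± 0.14 (limma, adjusted p = 0.393), with 12218 ± 2823 and 15169 ± 3699, and at -0.19 without layers 5 and 6.

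The remaining members were closer to 0. ATP6V0A1 was at -0.21 ± 0.16, ATP6V1B2 at -0.15 ± 0.15 and ATP6V1A at -0.06 ± 0.15 (SE). The ATP6V1D probe sets were at -0.30 ± 0.18, -0.07 ± 0.14 and 0.02 ± 0.18, and those of ATP6V1C1 at -0.08 ± 0.21 and 0.01 ± 0.16. Over all 14 member probe sets the adjusted p ran from 0.34 to 0.983 (limma).

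**Figure D4:**
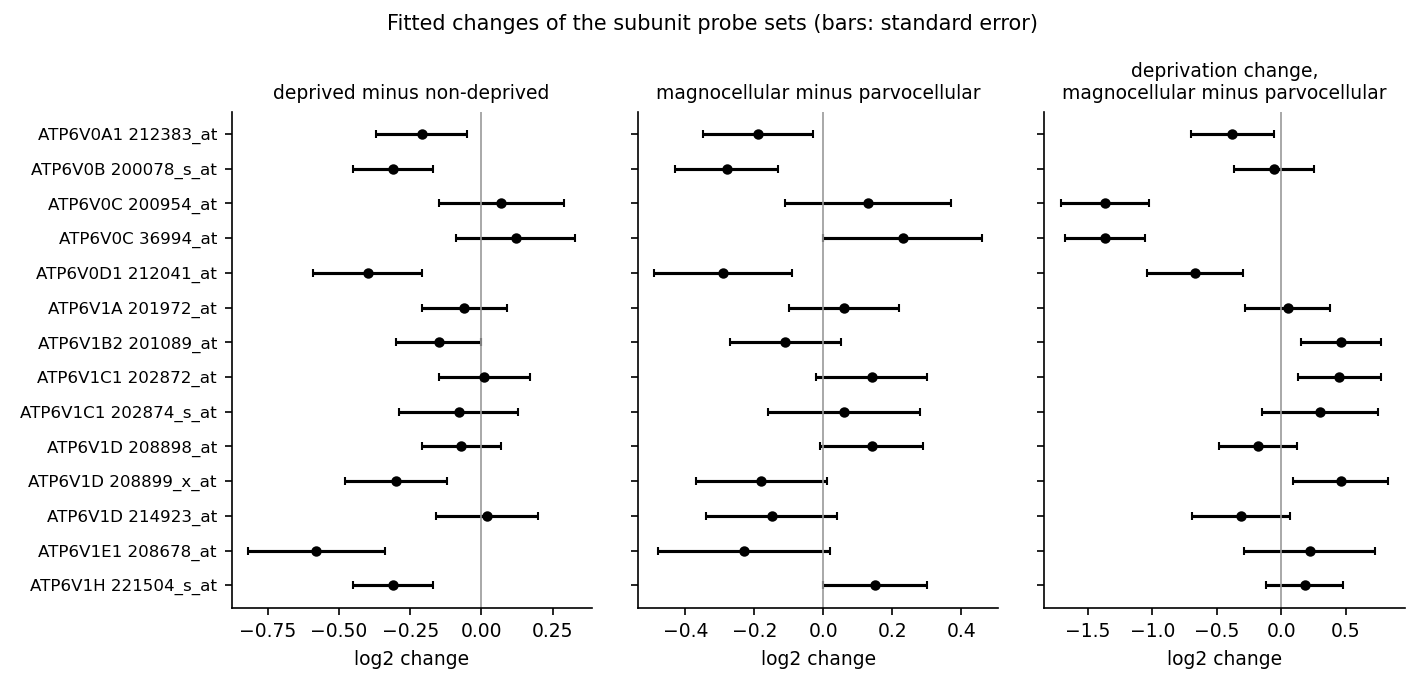
Log2 change of each tested member probe set (points) with its standard error (bars) for deprivation, cell class and their interaction. All estimates for deprivation lie between -0.58 and 0.12, and the ATP6V0C probe sets stand at -1.37 for the interaction.

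Marker scores of cell types differed between deprived and non-deprived layers. The neuronal marker score of 11 genes was -0.11 ± 0.05 in deprived and 0.11 ± 0.06 in non-deprived layers (SD, n = 6 each), with ranges of -0.19 to -0.06 and 0.04 to 0.21. All 11 neuronal markers had negative estimates (median -0.21), and none passed the threshold. The glial and endothelial scores went the other way, and their ranges in deprived and non-deprived layers overlapped. Oligodendrocytes had 0.19 ± 0.41 and -0.19 ± 0.24, and astrocytes 0.21 ± 0.34 and -0.21 ± 0.15. Microglia had 0.14 ± 0.38 and -0.14 ± 0.19, and endothelial markers 0.12 ± 0.35 and -0.12 ± 0.16 (SD, n = 6 each). The part of these shifts in the members' estimates was not tested.

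ATP6V0C gave the largest member estimate of any tested comparison, in the difference of the deprivation effect between the cell classes. By 36994_at the non-deprived magnocellular layers had 41406 (ipsilateral layer 1) and 40212 (contralateral layer 2), and the deprived ones had 29164 (contralateral layer 1) and 18898 (ipsilateral layer 2). In the parvocellular layers the order turned. The deprived arrays had 30828 and 32286 in the ipsilateral layers 3 and 5 and 31931 and 33564 in the contralateral layers 4 and 6. The non-deprived arrays had 18092 and 28934 in the ipsilateral layers 4 and 6 and 18716 and 22245 in the contralateral layers 3 and 5. Within each class the deprived and non-deprived arrays did not overlap, and both hemispheres were represented on each side. Of 11105 probe sets tested, 46 (0.414%) separated within both classes and in opposite order, and 36994_at was the only 1 of the 14 members among them.

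As means, this was 24031 ± 7259 in deprived against 40809 ± 844.3 in non-deprived magnocellular layers (SD, n = 2 each). Parvocellular layers had 32152 ± 1128 against 21997 ± 4973 (SD, n = 4 each). By layer the deprived array was 0.704 and 0.47 times the non-deprived one in layers 1 and 2, and 1.65, 1.76, 1.45 and 1.16 times in layers 3 to 6. These ratios also hold the difference between hemispheres, which for this probe set was -0.06.

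The interaction, the magnocellular minus the parvocellular deprivation effect, was -1.37 ± 0.31 (SE; limma, adjusted p = 0.307) and did not pass the threshold. The second probe set, 200954_at, gave -1.37 ± 0.34 (limma, adjusted p = 0.39). It had 9845 and 6572 in the deprived against 16074 and 12954 in the non-deprived magnocellular layers 1 and 2. In parvocellular layers it was 11843 ± 1175 in deprived and 8298 ± 1797 in non-deprived arrays (SD, n = 4 each), with ratios above 1.5 in layers 3 to 5 and of 0.997 in layer 6. Here the parvocellular groups overlapped, since the non-deprived layer 6 (10857) exceeded the deprived layers 3 (10822) and 6 (10828). Both probe sets read the same gene on the same arrays and are not independent evidence.

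The limma fit called 0 of 14 members and 0 of all 11105 probe sets for this interaction (0.0%). At an unadjusted p under 0.05 it had 2 of 14 members (14.3%), both of ATP6V0C, against 8.73% of all tested. The call depended on 1 array. Without the contralateral deprived layer 1, the higher of the deprived magnocellular arrays, the interaction was -1.71 and -1.75 by 36994_at and 200954_at (limma, adjusted p = 0.0228 and 0.0284), and 208 of 11105 probe sets passed. That fit has 1 deprived magnocellular array, the ipsilateral layer 2 with its high GAPDH ratio and low correlation, which is assumed to vary like the other groups. Without the ipsilateral deprived layer 2 the interaction was -1.03 and -0.99, again with 1 array in that group. Oligodendrocyte marker scores were -0.32 in magnocellular and 0.16 in parvocellular layers, with ranges that overlapped (-0.47 to 0.06 and -0.25 to 0.67). For the interaction itself the 8 tested oligodendrocyte markers had a median of -0.13, against -0.05 over all tested, with 3 positive and 5 negative. The part of these markers was not tested. In the fit of the parvocellular layers alone, the ATP6V0C change with deprivation was 0.57 ± 0.17 and 0.53 ± 0.19 (limma, adjusted p = 0.639 and 0.656).

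**Figure D5:**
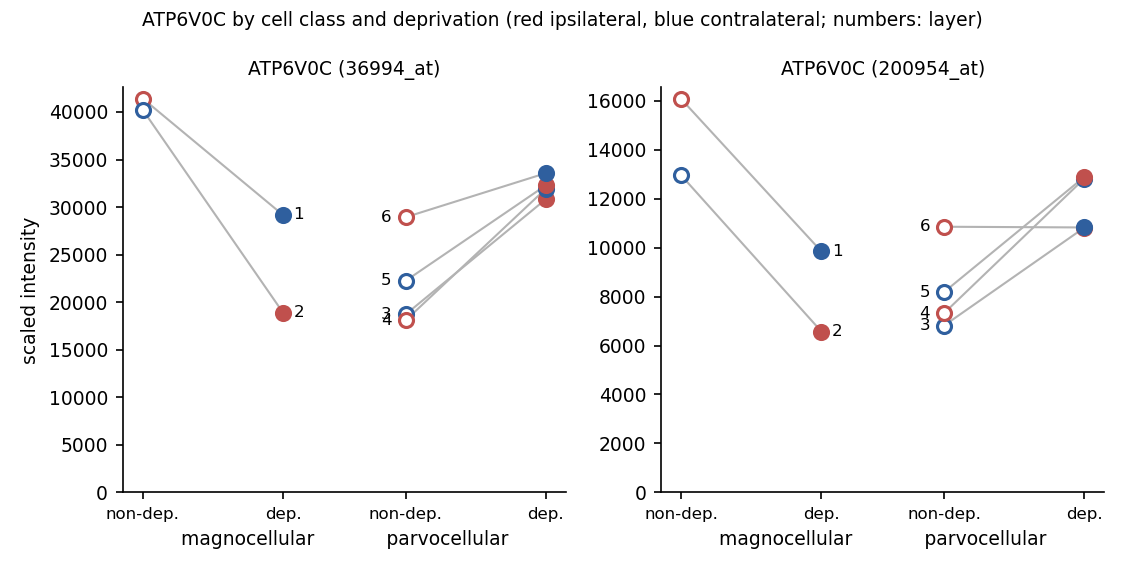
Scaled intensity (vertical axis) of both ATP6V0C probe sets in non-deprived (open) and deprived (filled) layers of each cell class, red ipsilateral and blue contralateral, with grey lines joining the arrays of the same layer. By 36994_at the deprived end of the line is the lower in both magnocellular layers (29164 and 18898) and the higher in all 4 parvocellular layers (30828 to 33564), a pattern that did not pass the threshold (adjusted p = 0.307, limma).

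Other members showed smaller interactions with wide errors. ATP6V0D1 was at -0.67 ± 0.37, ATP6V1B2 at 0.46 ± 0.31 and ATP6V0B at -0.06 ± 0.31 (SE; limma, adjusted p of 0.636, 0.697 and 0.972). Over the 14 members the median was -0.01, against -0.05 over all tested.

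Between magnocellular and parvocellular layers, whose relay neurons differ in size and visual response, no member passed. The limma fit called 0 of 14 members against 80 of 11105 (0.72%), and 0 of 14 members had an unadjusted p under 0.05, against 14.6% of all tested. No member had classes that did not overlap, against 1.5% of all tested. The estimates ran from -0.29 to 0.23, with 7 members of each sign and a median of -0.03 (all tested, -0.07). The lowest belonged to ATP6V0D1 (-0.29 ± 0.20) and ATP6V0B (-0.28 ± 0.15; limma, adjusted p = 0.413). ATP6V0B was at 18051 ± 6473 in magnocellular (n = 4) and 22652 ± 10048 in parvocellular layers (SD, n = 8). The highest was ATP6V0C by 36994_at (0.23 ± 0.23). The ACTB 3'/5' ratio was 46.4 ± 15.1 in magnocellular (n = 4) and 25.7 ± 8.78 in parvocellular layers (SD, n = 8). With this ratio as a further term the fit called 0 of 14 members and 4 of 11105 probe sets. ATP6V0D1 was then at 0.27, ATP6V0B at -0.05 and ATP6V0C by 36994_at at 0.74. The part of RNA quality in the class estimates was not tested.

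The deprivation effect did not differ detectably between the hemispheres, a contrast that is the same as the eye of input in this design. The limma fit called 0 of 14 members and none of all probe sets (0.0%), and 0 of 14 had an unadjusted p under 0.05, against 6.57% of all tested. Member estimates, the ipsilateral minus the contralateral effect, ran from -0.49 to 0.70, the latter for ATP6V1E1 (0.70 ± 0.45 SE; limma, adjusted p = 0.848). For ATP6V0B it was -0.01 ± 0.29. The dorsal parvocellular layers 5 and 6 against layers 3 and 4 gave 0 of 14 members and none of all probe sets (0.0%; limma). At an unadjusted p under 0.05 this was 0 of 14 members and 2.47% of all. Those estimates ran from -0.28 to 0.29, both for probe sets of ATP6V1D.

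The members did not move as a block over the 12 arrays. Over the 91 pairs of member probe sets the median Pearson r was 0.13, against 0.02 for all pairs tested, with a range of -0.73 to 0.96 and 51 positive pairs. These arrays share hemisphere and RNA quality, and the values are given as a description. ATP6V0B was most alike to ATP6V1H among the members (r = 0.85 over 12 arrays, rank 38 of 9842 probe sets with 1 gene), followed by ATP6V0D1 (r = 0.83, rank 55). Within the hemispheres, with 6 arrays each, ATP6V1H had r = 0.48 ipsilaterally and 0.74 contralaterally, and ATP6V0D1 had 0.84 and 0.70. ATP6V0C by 36994_at had r = 0.07 over the 12 arrays, 0.72 ipsilaterally and -0.85 contralaterally. Each r within a hemisphere rests on 6 arrays that also differ in layer, deprivation and RNA quality. The change of sign was not tested.

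Of all genes, those most like ATP6V0B over the 12 arrays were TRO (r = 0.96), SULT4A1 (0.95), PFKP (0.94), H2AZ1 (0.94) and COMMD4 (0.93). Each r also holds the hemisphere difference by which ATP6V0B was chosen. In the same order the hemisphere differences of these genes were -1.19, -0.71, -0.96, -0.35 and -0.90. TRO encodes trophinin, SULT4A1 a brain sulfotransferase-like protein, PFKP the platelet form of phosphofructokinase, H2AZ1 a histone variant and COMMD4 a COMM domain protein. SULT4A1 kept this likeness within each hemisphere (r = 0.93 ipsilaterally and 0.96 contralaterally, n = 6 each), with means of 17732 ± 3739 and 29402 ± 8427. TRO had r = 0.86 and 0.69 within them, and means of 2655 ± 651.4 and 5960 ± 828.1 (SD, n = 6 each). Within the ipsilateral and contralateral hemispheres PFKP had r = 0.78 and 0.87, H2AZ1 0.73 and 0.92, and COMMD4 0.77 and 0.80.

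The other genes of the pump and its pathways were described from 5 lists, and none of their genes passed the threshold for deprivation or for cell class. Of 15 other V-ATPase subunits and accessory proteins, 9 were on the array and 7 were tested. For deprivation 5 of 7 were negative (median -0.31, against 0.03 over all tested). The smallest p belonged to ATP6V1G2, the neuronal form of the peripheral stalk subunit G, at 13414 in deprived and 19115 in non-deprived layers (-0.53 ± 0.14; limma, adjusted p = 0.164). TCIRG1, another form of subunit a, followed at -0.46 ± 0.18 (limma, adjusted p = 0.33). Between hemispheres the median of the 7 was -0.06, against 0.07 over all tested. ATP6V1G1 was at -0.60, ATP6V1G2 at -0.33, ATP6AP2 at -0.13 and ATP6V0E2 at -0.06. TCIRG1 was at -0.02, ATP6V0E1 at 0.04 and the accessory subunit ATP6AP1 at 0.22.

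Of 9 tested genes of assembly and regulation (15 listed), 6 were negative for deprivation (median -0.08). They included ALDOA, the glycolytic enzyme aldolase, which binds the pump (-0.67 ± 0.15; limma, adjusted p = 0.101), and ROGDI (-0.53 ± 0.19; adjusted p = 0.278 by limma). Of 13 tested genes of vesicle filling and the vesicle membrane (16 listed), where the pump's gradient is used, 12 were negative (median -0.21). VAMP1, a vesicle fusion protein, had -0.64 ± 0.13 (limma, adjusted p = 0.101), and SV2B, a synaptic vesicle glycoprotein, had -0.37 ± 0.16 (limma, adjusted p = 0.368). SYT1, SLC17A6 and SLC17A7 are in this list and also among the neuronal markers, whose score was lower in deprived layers. The part of that score in the estimates of the vesicle list was not tested.

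Lysosomal genes were divided, with 16 of the 29 tested (40 listed) negative and a median of -0.01. PPT1, a lysosomal thioesterase, had -0.55 ± 0.15 and LAMP2, a lysosomal membrane protein, 0.58 ± 0.20 (limma, adjusted p of 0.16 and 0.269). Of 11 tested genes of mTORC1 at the lysosome (16 listed), the growth-control complex that senses amino acids beside the pump, 5 were negative (median 0.00). Those of smallest p were LAMTOR2 (-0.36 ± 0.20) and RRAGA (-0.34 ± 0.20; limma, adjusted p of 0.5 and 0.512).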

How the data were processed

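The deposited table held 1 scaled intensity for each of 22283 probe sets (human Affymetrix design) on each array, not log-transformed. How the authors computed these intensities, and whether probe sets were called as detected, is not given in the sources used here. Trimmed array means (2%) of 1500.45 to 1500.6 showed that the arrays were already scaled. Gene names came from the platform annotation. Coordinates are left out because no build was stated.

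A floor was set at the 20th percentile of all values (110.8) before log2 was taken. The 11105 probe sets with a mean at or above the median, controls left out, were tested. limma 3.58.1 under R 4.3.3 (lmFit, eBayes with a trend) fitted deprivation, cell class and hemisphere (8 residual degrees of freedom). Other contrasts were added singly (7). Tests were two-sided with Benjamini-Hochberg adjustment over all 11105 and a threshold of 0.05. The fit was tested on simulated data with independent normal noise. There a log2 change of 1 was called in 68.2% of cases for deprivation and in 5.8% for the interaction with cell class. At a change of 1.5 the shares were 88.6% and 24.8%. A missing call therefore says less for that interaction. Smaller changes were not simulated. The member estimates for deprivation were all smaller (-0.58 to 0.12), so these shares do not cover them.

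All member genes are named, with the 2 genes of smallest p for deprivation in each list and the 5 genes most like ATP6V0B. All tested genes of the list of other subunits are also named with their hemisphere values, a choice made after these were seen. In lists 1 probe set, that of highest mean, stands for a gene. Members and lists were chosen with earlier results of these data known. The number of arrays limits the precision. Alternatives were other scalings, filters and floors, terms left out or added, the layer number as a block and each array left out.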

Additional observations from a re-analysis of the deposited data

Results flagged for a closer look

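In 8 of 84 sets of 4, 6 or 8 arrays of a member probe set, the end array lay farther from its neighbour than Dixon's critical share of the range (0.829 for 4 arrays, 0.625 for 6, 0.526 for 8). Gaps and ranges were taken on the log2 scale, and the levels below are linear intensities. Chance gives about 1 in 20 for a set of independent arrays from 1 normal group. The sets here share arrays and mix layers with hemispheres or states, so their count cannot be set against that rate. The ipsilateral deprived layer 2, the array of lowest correlation with the others, accounted for 3. There ATP6V0D1 was at 2705, with the next ipsilateral array at 5305 (gap 0.697 of the range) and the next deprived array at 6634 (0.849). ATP6V0C by 36994_at was at 18898, with the next deprived array at 29164 (0.755).

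The ipsilateral layer 1 accounted for another 2, with ATP6V1A by 201972_at at 8971 against 11220 in the nearest ipsilateral array (0.718) and ATP6V1D by 208899_x_at at 5388 against 8854 in the nearest non-deprived array (0.778). The latter probe set was also low in the ipsilateral layer 5, at 3933 against 7128 in the nearest parvocellular array (0.624). ATP6V1C1 by 202874_s_at was high in the ipsilateral layer 6, at 2473 against 1407 in the nearest ipsilateral array (0.672). ATP6V1E1 was at 14905 in the contralateral layer 4, the highest deprived array, against 11099 in the next (0.682).

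The deprivation estimate of ATP6V0C by 36994_at had opposite signs in the cell classes, negative in both magnocellular layers and positive in all 4 parvocellular layers. The tested difference was -1.37 (limma, adjusted p = 0.307), so it did not pass the threshold.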

How the results depend on the processing

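No member passed the threshold for deprivation, cell class, the eye of input or the dorsal contrast under any alternative run (29, 27, 28 and 27), with lowest adjusted p of 0.104, 0.243, 0.501 and 0.998 (limma). For deprivation, 7 of 14 members kept their sign throughout. With the layer number as a replicate block 0 members passed for deprivation and 3 of 11105 probe sets did. Same-numbered layers did not deviate together by the rule used (r of -0.20 to 0.17), so beyond layer and cell class, which they share, the number was not taken to pair them. For the interaction of deprivation with cell class the members called ran from 0 to 2 when single arrays were left out. For the hemisphere the count of 1 became 0 with no intensity filter, no variance trend, the GAPDH or the ACTB ratio as a covariate, without the 2 arrays of highest GAPDH ratio, in parvocellular layers alone and without layers 5 and 6. It ran from 0 (without the contralateral deprived layer 1) to 4 (without the ipsilateral non-deprived layer 6, when 851 of 11105 passed) when single arrays were left out. The ATP6V0B difference stayed between -1.38 and -0.91. The cause of these changes was not tested. Over all probe sets the calls ranged from 0 to 43 for deprivation (7 in the text), 4 to 188 for cell class (80), 0 to 851 for hemisphere (12), 0 to 208 for the interaction (0) and 0 to 3 for the eye of input (0).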
